A study of Mus musculus with 13 samples.

Results

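Potassium channel genes were followed across 3 progranulin genotypes in the mouse cortex. They were taken as every gene whose symbol is Kcn, then letters and a closing number, which gave 85 of the 17562 genes in the authors' deposited tables. Of these, 39 encode voltage-gated subunits, 14 inward rectifiers, 12 two-pore channels, 8 calcium-activated channels with their relatives, and 12 auxiliary subunits. Those relatives are the sodium-activated Kcnt1 and Kcnt2, and Kcnu1, all counted below under calcium-activated members. Kcnq1ot1, a long noncoding RNA within Kcnq1, is not one of the 85. The cortex of 13 male mice, all 18 months old, was sequenced as total RNA. There were 4 Grn+/- mice, with 1 intact copy of the progranulin gene. A second group of 4 mice, Grn-/-;GRNtg, lacked both mouse copies and carried a human GRN transgene, whose promoter and insertion the labels do not give, nor the strain of any group. The 5 wild-type mice (Grn+/+) were the comparison for both. Progranulin is a secreted and lysosomal protein, and loss of 1 copy of its gene causes frontotemporal dementia in people.

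Potassium channels let potassium leave the cell, which returns the membrane to rest after an action potential and sets how readily a neuron fires again. Voltage-gated members open on depolarization, inward rectifiers hold the resting potential and clear potassium in glia, two-pore members carry background leak, and calcium-activated members link firing to calcium entry. Auxiliary subunits carry no current and change the gating or trafficking of the others.

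All pore-forming subunits share a signature in the loop that lines the narrowest part of the pore. The pattern searched was 5 codons: threonine or serine, any amino acid, glycine, tyrosine or phenylalanine, and glycine. It was found in the coding sequence of 73 of 73 pore-forming members and of 0 of 12 auxiliary members. Of the 12 two-pore members, 9 held it 2 times. The signature is a known mark of pore-forming subunits, so these counts were no independent test of the classes. The stretches of 11 of the 12 members that passed the test in a comparison are shown because these are the channels the results turn on. Capitals mark the 15 bases of the signature within 30 coding bases, from GENCODE M21 transcripts on GRCm38 (the assembly mm10 names), and the first Kcnk10 stretch crosses an intron.
Kcnq3 (chr15:66023725-66023754, minus strand): acactggccACCATTGGTTATGGAgacaag
Kcna3 (chr3:107037602-107037631, plus strand): accatgacaACTGTTGGTTATGGTgatatg
Kcna4 (chr2:107296486-107296515, plus strand): accatgacaACTGTGGGCTATGGGgacatg
Kcnc4 (chr3:107447793-107447822, minus strand): accatgacaACGCTTGGCTATGGGgacatg
Kcns2 (chr15:34839603-34839632, plus strand): agtatgaccACAGTTGGGTACGGAgatgtg
Kcnh2 (chr5:24325549-24325578, minus strand): agcctcaccAGCGTGGGCTTTGGCaatgtc
Kcnma1 (chr14:23528407-23528436, minus strand): acaatgtctACAGTGGGTTATGGGgacgtt
Kcnn1 (chr8:70850651-70850680, minus strand): accttcttgTCCATTGGCTATGGAgacatg
Kcnj10 (chr1:172369293-172369322, plus strand): tcccagaccACCATCGGCTATGGCttccgc
Kcnj2 (chr11:111072198-111072227, plus strand): acccagacaACCATTGGCTATGGTttcagg
Kcnk10, first loop (chr12:98490052-98496208, minus strand): gtcatcacaACCATAGGGTATGGGaatatt
Kcnk10, second loop (chr12:98440599-98440628, minus strand): acgctgaccACAGTAGGCTTTGGTgatttt
The fourth codon of the signature was TAT in 9 of these 12 stretches, TAC in 1 (Kcns2) and TTT in 2, namely Kcnh2 and the second loop of Kcnk10. The second codon of the stretch was cag in both inward rectifiers shown and atg in 5 others, Kcna3, Kcna4, Kcnc4, Kcns2 and Kcnma1.

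The deposited tables hold no values per mouse, only a mean normalized count over libraries and, for each comparison, a log2 fold change and the standard error (SE) of that change. A gene is said below to rise or fall where the authors' adjusted p was under 0.05. Of the 85 members, 71 are listed in all 3 tables, 7 in 2 and 7 in 1, and 18 had a mean normalized count under 50. Values after ± are the SE on the log2 scale, over 4 Grn+/-, 4 Grn-/-;GRNtg and 5 wild-type mice. Percentages of the wild-type or Grn+/- level are the deposited fold changes converted, and may differ from ratios of measured counts. Whether fewer cells of a type or less RNA per cell underlies a difference cannot be told apart in bulk tissue. Grn itself fell by 0.65 ± 0.077 in Grn+/- and by 2.02 ± 0.081 in Grn-/-;GRNtg against wild type, or to 63.6% and 24.7% of the wild-type level in the authors' deposited tables. Cortical excitatory markers were abundant, with a mean normalized count of 36091 for Slc17a7 and 2194 for Tbr1 in the authors' deposited table. In Grn+/- against wild type, 2 of 5 astrocyte markers (Gja1 and Slc1a2), 2 of 4 markers of oligodendrocyte precursors (Gpr17 and Vcan) and 1 of 6 interneuron markers (Erbb4) were lower. In Grn-/-;GRNtg against wild type, 2 of 4 endothelial markers (Flt1 and Kdr) and 1 of 5 excitatory markers (Camk2a) were lower and 1 of 5 leptomeningeal markers (Mgp) was higher. None of the 4 microglial, 5 mural, 5 oligodendrocyte, 6 striatal or 4 thalamic markers passed in any comparison.

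The channel transcripts spanned a wide range of levels. Per kilobase of exon, the mean normalized count had a median of 71.9 over the 85 members, and auxiliary members were the most abundant class at a median of 176. Voltage-gated members had a median of 86.3 per kilobase and the largest share of the summed level, 43.4%. Inward rectifiers had a median of 84.8, two-pore members 48.2 and calcium-activated members 46.7 per kilobase. Kcnab2, a beta subunit of Shaker-type channels, had the highest level of all, 2209 per kilobase. Next came Kcnj4, a strong inward rectifier of forebrain neurons, at 1273 per kilobase, and Kcnj9, a subunit of G protein-gated channels, at 1110 per kilobase. Among voltage-gated members Kcnh3, an EAG-family channel of forebrain neurons, had the highest level at 940 per kilobase, and Kcna1, an axonal Shaker-type channel, had 705. Kcnk1 led the two-pore members at 790 per kilobase, Kcnt1, a sodium-activated channel, led its class at 552, and the calcium sensors Kcnip2 and Kcnip3 followed Kcnab2 at 884 and 829. No spread over mice can be given for these levels, so neighbours in this order cannot be told apart by a test.

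**Figure D1:**
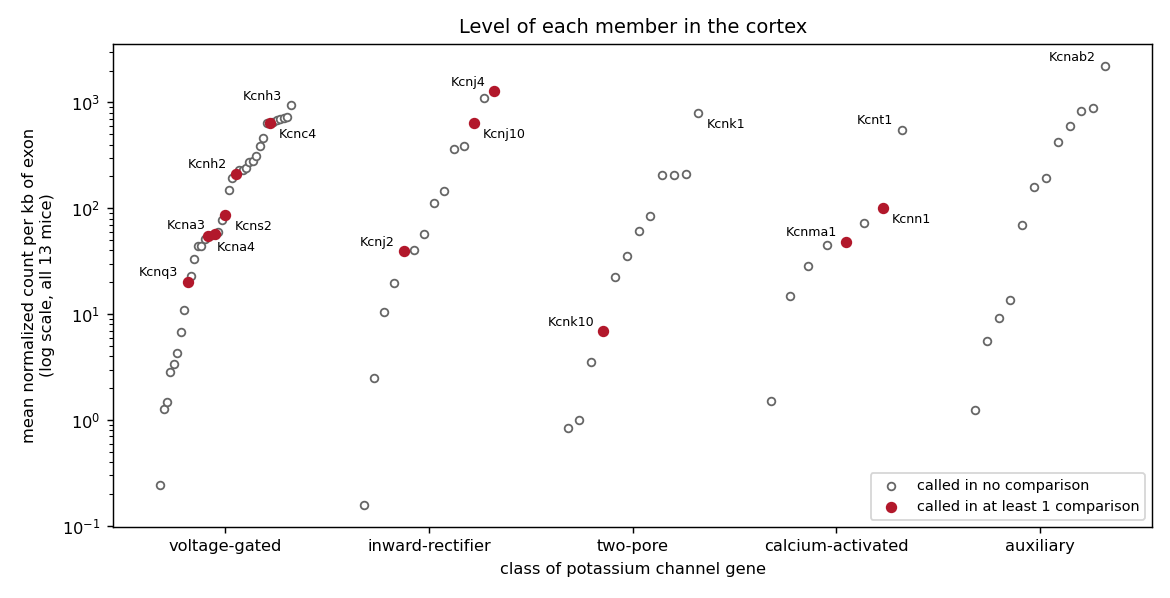
Mean normalized count per kilobase of exon (log axis) of the potassium channel genes by class, from the authors' deposited table, with 1 point per gene. Auxiliary members have the highest class median (176 per kilobase) and Kcnab2 the highest level (2209 per kilobase).

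In Grn+/- against wild type, 5 of 71 listed members passed the test, or 7.04%, beside 6.8% of all 13482 genes tested. Kcnma1, Kcnq3 and Kcna3 fell, to between 70.5% and 71.4% of the wild-type level, and Kcnh2 and Kcns2 rose. Over all genes 2.29% were higher and 4.51% lower, so the members' share called in this comparison lay near the background. At an unadjusted p under 0.05 there were 15 of 71 members, 21.1%, beside 20.2% of genes. Fold changes were negative in 32 of 71 members, 45.1%, beside 47.6% of genes.

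Kcnma1, the pore subunit of the BK channel opened jointly by calcium and voltage, had the smallest adjusted p. It fell by 0.50 ± 0.123 (adjusted p = 0.0027) in Grn+/- against wild type in the authors' deposited table, which is 70.5% of the wild-type level. Kcnmb4, the neuronal beta subunit of that channel, had a log2 fold change of -0.02 ± 0.092 (adjusted p = 0.94) in the same deposited table of the authors. Exons of Kcnmb4 share 355 bases with Kcnmb4os1 and 693 with Kcnmb4os2 on the opposite strand. Reads of these genes may not be separated since the strand setting is not stated. Kcnq3, a subunit of the channel that carries the M-current, fell by 0.50 ± 0.138 (adjusted p = 0.011) in the authors' deposited table, to 70.9% of wild type. Kcna3, a Shaker-type channel found in axons and immune cells, fell by 0.49 ± 0.138 (adjusted p = 0.013) in the authors' deposited table, to 71.4% of wild type. Markers of microglia, an immune cell that can express Kcna3, were negative in 4 of 4 genes with a median of -0.12 and none called, and their part in the result was not tested. In Grn-/-;GRNtg, Kcna3 had -0.30 ± 0.138 (adjusted p = 0.18) against wild type in the authors' deposited table. It had 0.19 ± 0.137 (adjusted p = 0.76) against Grn+/-, so a difference between the mutant groups was not shown.

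The members that rose in Grn+/- were both voltage-gated. Kcns2, a subunit that forms no channel alone and alters the current of its partners, was at 129% of wild type, a log2 difference of 0.37 ± 0.103 (adjusted p = 0.012) in the authors' deposited table. Kcnh2, the ERG channel known for cardiac repolarization and also found in neurons, was at 118% of wild type, a log2 difference of 0.24 ± 0.068 (adjusted p = 0.012) in the authors' deposited table. Voltage-gated members were thus split 2 higher and 2 lower of 34 listed, with a median log2 fold change of 0.02 and 12 negative. Kcng2, another silent subunit, had the largest statistic of those that missed, 0.24 ± 0.128 (adjusted p = 0.27) in the authors' deposited table.

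None of 12 inward rectifiers, 9 two-pore members or 9 auxiliary members passed in Grn+/- against wild type by the authors' Wald test, where 4, 4 and 1 of them had an unadjusted p under 0.05. Kcnj4 came nearest, with a value of 0.27 ± 0.093 (adjusted p = 0.051) in the authors' deposited table. Kcnk10, a TREK-type leak channel opened by stretch and lipids, had -0.36 ± 0.130 (adjusted p = 0.067) in that deposited table of the authors, and Kcnip1 0.23 ± 0.104 (adjusted p = 0.16). Calcium-activated members were negative in 6 of 7, with a median of -0.14, and 1 of the 7 passed. After Kcnma1 the largest statistic among them was that of Kcnn3, a small-conductance channel, showing -0.31 ± 0.135 (adjusted p = 0.15) in the authors' deposited table. All 7 nuclear-retained RNAs had negative fold changes, 4 of them called, and reads assigned to no gene had a log2 fold change of -0.22 ± 0.052 (adjusted p = 0.0019) in the authors' deposited table. The part of either in the members' values was not tested. The statistics over all genes were wider than the unit normal distribution, with a robust spread of 1.49, and after division by it 0 of the 5 calls passed, with 6 members at an unadjusted p under 0.05.

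**Figure D2:**
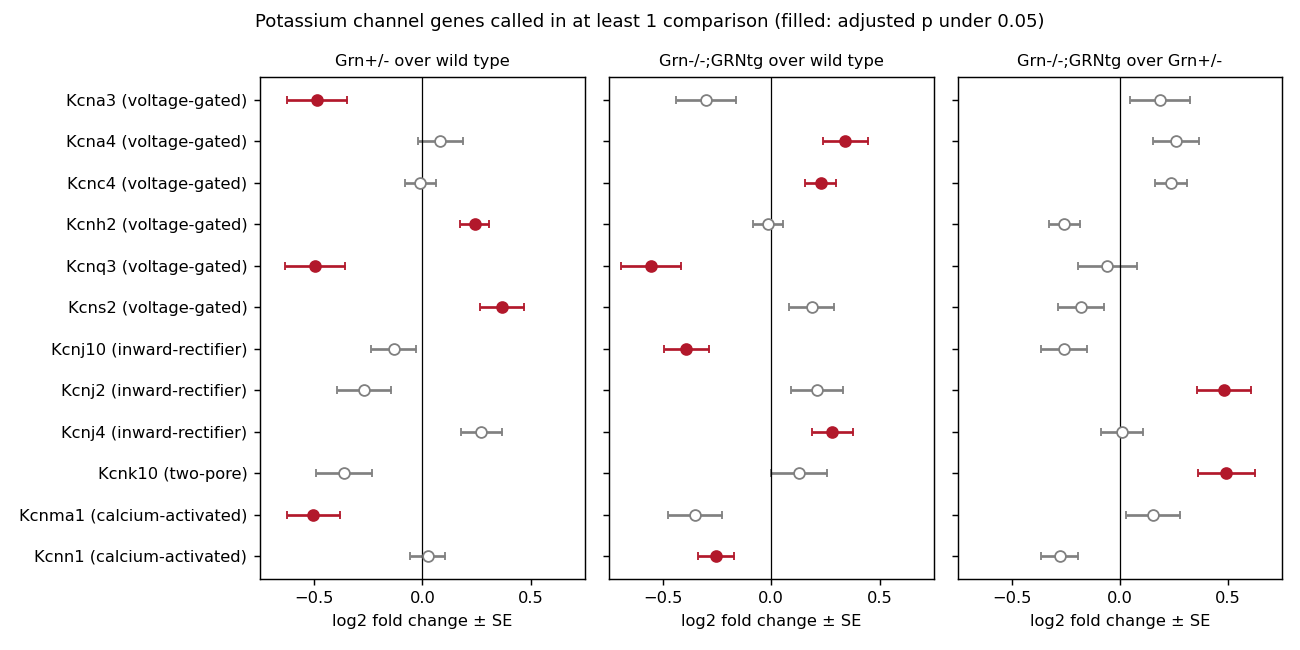
Log2 fold change with its SE of the 12 members that passed in a comparison, set against wild type for Grn+/- and for Grn-/-;GRNtg, and for Grn-/-;GRNtg set against Grn+/-, from the authors' deposited tables. Kcnq3 is the only member called in 2 comparisons, at -0.50 and -0.55 in Grn+/- and Grn-/-;GRNtg against wild type.

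In Grn-/-;GRNtg against wild type, 6 of 78 listed members passed, or 7.69%, beside 4.87% of all 14961 genes. Kcnj10, Kcnq3 and Kcnn1 fell and Kcna4, Kcnc4 and Kcnj4 rose. Over all genes 1.81% were higher and 3.05% lower. Of the 71 members in all 3 tables, 20 had an unadjusted p under 0.05, 8 higher and 12 lower, or 28.2% beside 21.7% of genes. Fold changes were negative in 51 of 78 members, 65.4%, beside 48.7% of genes, and their median was -0.09, beside 0.01 over all genes.

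Kcnq3 fell by 0.55 ± 0.138 (adjusted p = 0.0047) in the authors' deposited table, to 68.1% of wild type. Kcnq5, a further M-current subunit, had -0.21 ± 0.123 (adjusted p = 0.34) in the authors' deposited table. Both comparisons use the same wild-type mice, and Kcnq3 had -0.06 ± 0.138 (adjusted p = 0.96) in Grn-/-;GRNtg against Grn+/- in the authors' deposited table, with a 95% interval of -0.33 to 0.21. Kcna4, a fast-inactivating A-type channel of axons, rose by 0.34 ± 0.103 (adjusted p = 0.029) in the authors' deposited table, to 127% of wild type. Kcnc4, a fast-gating channel of the Shaw family, rose by 0.23 ± 0.070 (adjusted p = 0.032) in the authors' deposited table, to 117%. Of the other Shaw-type members, Kcnc1 had -0.16 and Kcnc2 0.04 in the authors' deposited table, neither of them called. Of 36 voltage-gated members listed, 24 were negative, and the silent subunit Kcng3 had -0.36 ± 0.119 (adjusted p = 0.051) in the authors' deposited table, at a mean normalized count of only 14.5.

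Inward rectifiers were called in both directions. Kcnj10, the glial channel through which astrocytes and oligodendrocytes take up potassium, fell by 0.39 ± 0.103 (adjusted p = 0.0093) in the authors' deposited table, to 76.2% of wild type. Kcnj16, which joins Kcnj10 in mixed channels, had 0.11 ± 0.106 (adjusted p = 0.58) in the authors' deposited table, with a 95% interval of -0.10 to 0.32. Astrocyte markers were negative in 5 of 5, with a median of -0.14 and none called, and oligodendrocyte markers in 5 of 5, with a median of -0.22 and none called. Kcnj10 lay below every one of these 10 markers, and their part in its fall was not tested. Kcnj4 rose by 0.28 ± 0.093 (adjusted p = 0.049) in the authors' deposited table, to 122% of wild type, and its call was lost once fold changes were centred on the median gene (adjusted p = 0.054). Its value in Grn+/- against the same wild-type mice was close, 0.27 ± 0.093 (adjusted p = 0.051), and just missed the threshold. Between the mutant groups Kcnj4 had 0.01 ± 0.097 (adjusted p = 0.99) in the authors' deposited table, with a 95% interval of -0.18 to 0.20. Markers of the striatum, which lies under the cortex, were positive in 6 of 6 with a median of 0.15 and none called. Excitatory markers were negative in 4 of 5, with a median of -0.10 and 1 called (Camk2a). The part of either set in the rise of Kcnj4 was not tested. The median of the 13 inward rectifiers was 0.07, the only positive class median in this comparison.

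Kcnn1, a small-conductance channel that shapes the pause after firing, fell by 0.25 ± 0.082 (adjusted p = 0.046) in the authors' deposited table, to 83.8% of wild type. That call was lost when the trend with gene span was removed (adjusted p = 0.056), and its exons share 132 bases with A230052G05Rik on the opposite strand, whose reads may not be separated since the strand setting is not stated. Kcnma1 had -0.35 ± 0.123 (adjusted p = 0.067) in the authors' deposited table, and 0.15 ± 0.126 (adjusted p = 0.81) in Grn-/-;GRNtg against Grn+/-. It shares 1016 exon bases with 4930519K11Rik on the opposite strand, to which the same limit applies. Calcium-activated members were negative in 7 of 8. None of 10 two-pore members passed, with 2 at an unadjusted p under 0.05, and the nearest was the acid-sensitive leak channel Kcnk9, showing -0.34 ± 0.116 (adjusted p = 0.057) in the authors' deposited table. None of 11 auxiliary members passed either, with 3 at an unadjusted p under 0.05. Among them was Kcnip3, a calcium sensor of A-type channels also known as a transcriptional repressor, showing 0.26 ± 0.088 (adjusted p = 0.056) in the authors' deposited table. After division by the robust spread of all statistics, 1.56, 0 of the 6 calls passed, with 5 members at an unadjusted p under 0.05. All 7 nuclear-retained RNAs had negative fold changes, 1 of them called, and reads assigned to no gene had -0.18 ± 0.052 (adjusted p = 0.024) in the authors' deposited table, whose part in these values was not tested.

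**Figure D3:**
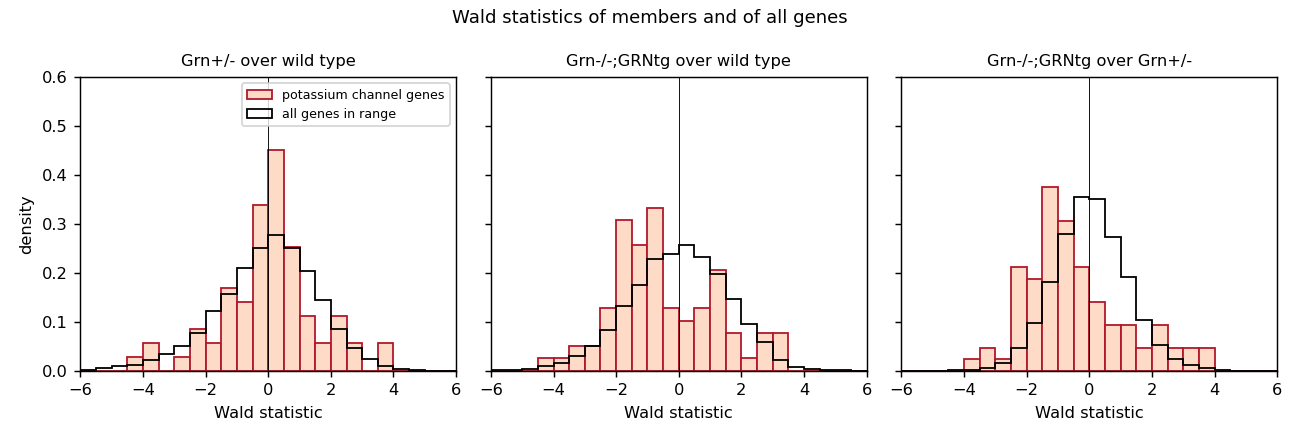
Histograms of the Wald statistic (log2 fold change over its SE, horizontal axis) as a density (vertical axis) in the 3 comparisons, for the potassium channel genes (filled) and for all genes within the range of the axis (outline), from the authors' deposited tables. In Grn-/-;GRNtg against Grn+/- the members lie mostly below 0, with 59 of 85 negative.

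Between the mutant groups, Grn-/-;GRNtg against Grn+/-, 2 of 85 members passed, or 2.35%, beside 0.467% of all 17562 genes. Both rose: Kcnj2 and Kcnk10. Over all genes 0.319% were higher and 0.148% lower. Most other members leaned the opposite way: 59 of 85 fold changes were negative, 69.4%, beside 49.2% of genes, with a median of -0.08 beside 0.00. Among the 71 members in all 3 tables, 21 had an unadjusted p under 0.05, 9 higher and 12 lower, or 29.6% beside 9.82% of genes. These counts describe the members and no test of the list was made.

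Kcnj2, an inward rectifier that holds neurons and vessels near rest, rose by 0.48 ± 0.126 (adjusted p = 0.033) in the authors' deposited table, to 140% of the Grn+/- level. Set against wild type it had 0.21 ± 0.122 (adjusted p = 0.32) in Grn-/-;GRNtg and -0.27 ± 0.123 (adjusted p = 0.18) in Grn+/- in the authors' deposited tables, so the mutant groups lay on either side of wild type and neither difference passed. Kcnk10 showed the same arrangement. It rose by 0.49 ± 0.132 (adjusted p = 0.043) in the authors' deposited table, to 141% of the Grn+/- level, showing 0.13 ± 0.128 (adjusted p = 0.60) in Grn-/-;GRNtg and -0.36 ± 0.130 (adjusted p = 0.067) in Grn+/- against wild type. Its mean normalized count was only 60.4, and it no longer passed among the genes of all 3 tables (adjusted p = 0.056). Markers of oligodendrocyte precursors were positive in 4 of 4 (median 0.22) and striatal markers in 6 of 6 (median 0.20) in this comparison. Endothelial markers were negative in 4 of 4 (median -0.15), mural markers in 5 of 5 (median -0.16) and excitatory markers in 4 of 5 (median -0.05). None of these markers was called, and their part in either rise was not tested.

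The nearest voltage-gated member was Kcnh2, showing -0.26 ± 0.071 (adjusted p = 0.058) in the authors' deposited table and not called. That comparison and the rise of Kcnh2 in Grn+/- use the same Grn+/- mice. Kcnn1 had -0.28 ± 0.086 (adjusted p = 0.12), Kcnc4 0.24 ± 0.073 (adjusted p = 0.12) and Kcnip1 -0.32 ± 0.107 (adjusted p = 0.18) in the authors' deposited table. Two-pore members were negative in 11 of 12, Kcnk10 being the exception, and Kcnk4, a further stretch-gated leak channel, had -0.22 ± 0.129 (adjusted p = 0.65) in the authors' deposited table. Of these 12, 3 had a mean normalized count under 50, and only Kcnk10 had an unadjusted p under 0.05 by the authors' Wald test. Of 39 voltage-gated members 26 were negative, as were 9 of 14 inward rectifiers, 5 of 8 calcium-activated and 8 of 12 auxiliary members. None of the voltage-gated, calcium-activated or auxiliary members passed, and 12, 2 and 5 of them had an unadjusted p under 0.05. The widest voltage-gated values were 0.35 ± 0.114 (adjusted p = 0.17) for Kcnd3, an A-type channel, and -0.33 ± 0.118 (adjusted p = 0.25) for Kcnh1, an EAG channel, in the authors' deposited table. After division by the robust spread of 1.10, 0 of the 2 calls passed, with 19 of 85 members at an unadjusted p under 0.05.

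**Figure D4:**
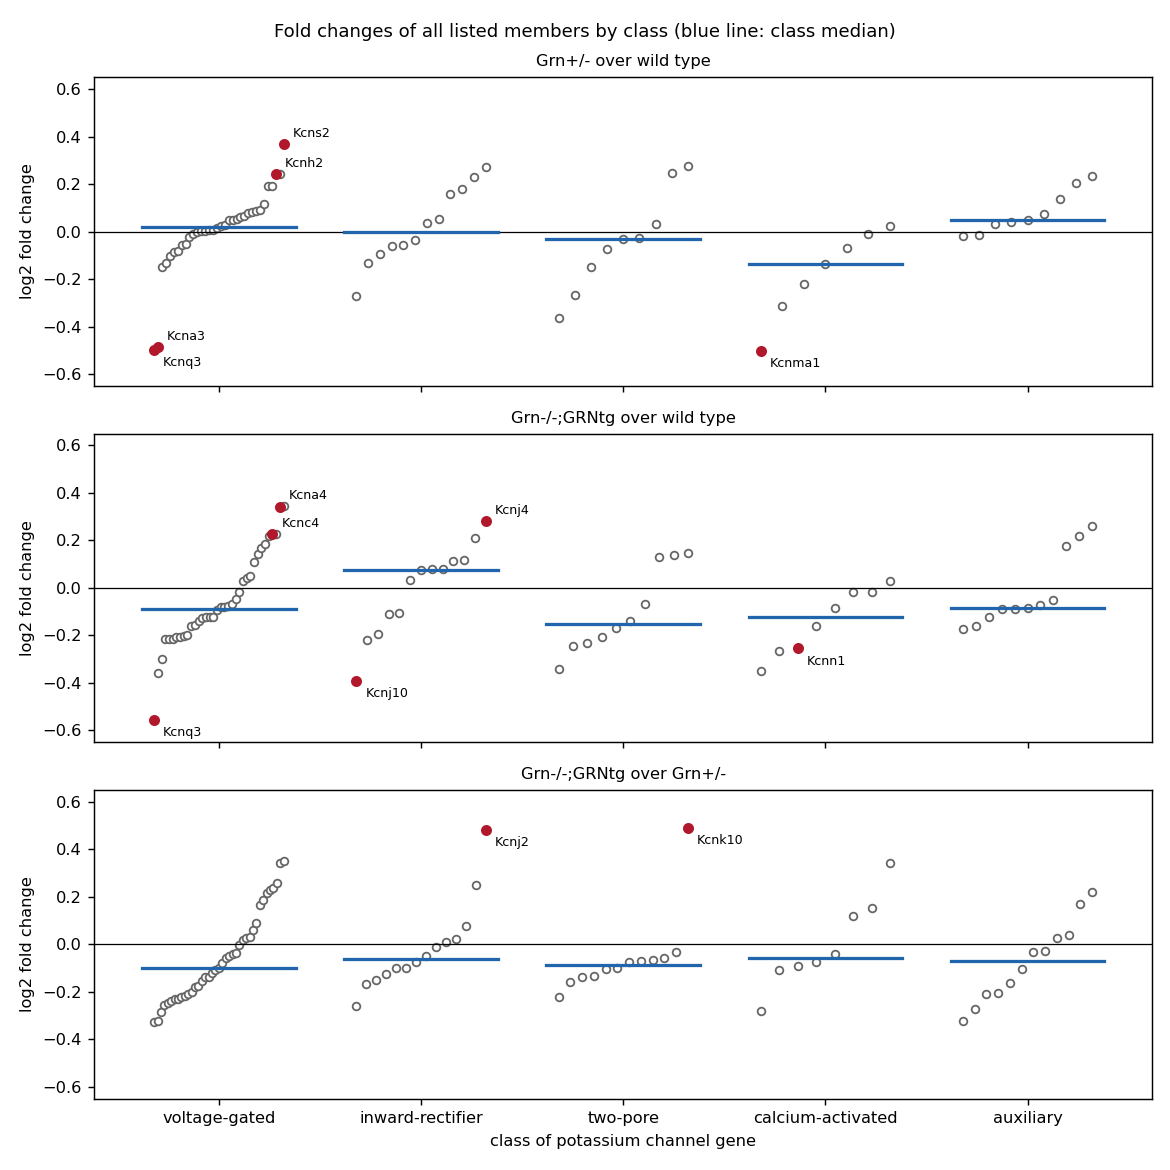
Log2 fold changes of the potassium channel genes by class in the 3 comparisons, from the authors' deposited tables, with the class medians. Class medians of Grn-/-;GRNtg against Grn+/- lie between -0.10 (voltage-gated) and -0.06 (inward rectifiers and calcium-activated members).

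Most of the 3 highest-level members of each class passed in no comparison, the exceptions being Kcnj4, Kcnj10 and Kcnn1. Kcnab2 had -0.17 ± 0.085 (adjusted p = 0.22) in Grn-/-;GRNtg and 0.03 ± 0.085 (adjusted p = 0.89) in Grn+/- against wild type in the authors' deposited tables. Kcnt1 had -0.09 ± 0.061 (adjusted p = 0.43) and -0.01 ± 0.061 (adjusted p = 0.94) in those groups, again against wild type in the authors' deposited tables. Kcnk1 had -0.07 ± 0.088 (adjusted p = 0.70) in Grn-/-;GRNtg and 0.03 ± 0.088 (adjusted p = 0.89) in Grn+/-, against wild type in the authors' deposited tables. Kcnh3 and Kcna1 had -0.12 ± 0.086 and -0.22 ± 0.129 in Grn-/-;GRNtg, with 0.08 ± 0.086 and 0.01 ± 0.129 in Grn+/-, against wild type in the authors' deposited tables, none of them called. Kcnj9 had 0.08 ± 0.083 in Grn-/-;GRNtg and 0.18 ± 0.082 in Grn+/-, against wild type in the authors' deposited tables, and its partner Kcnj6 had -0.22 ± 0.112 and -0.05. Kcnip2, Kcnk3, Kcnk12 and Kcnn2 likewise passed in no comparison, with an adjusted p of 0.21 or more. At the median SE of the members, a log2 fold change of 0.33 in Grn+/- and 0.34 in Grn-/-;GRNtg against wild type was needed to pass, and 0.42 between the mutant groups. Smaller deposited fold changes therefore could not pass for a member with that SE. This is a limit on the deposited values and does not give the smallest true change that could be detected.

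All 12 called members were pore-forming, as are 73 of the 85. Their gene spans ran from 1.90 to 725 kb with a median of 21.4 kb, against 42.7 kb in the 73 members called in none. Their median level was 71.6 per kilobase, against 71.9 in the others. Span and fold change had a Spearman rho of -0.26 over the 71 members in Grn+/- against wild type, beside -0.23 over all genes, a description over genes that share libraries. In a cluster of 4 members with gaps under 0.5 Mb on chromosome 3, Kcna3 was called lower in Grn+/- and Kcnc4 higher in Grn-/-;GRNtg, with Kcna2 between them called in neither. On chromosome 1, Kcnj10 lies beside Kcnj9, which was called in no comparison. On chromosome 11, which carries Grn, Kcnj2 lies 8.63 Mb from it and Kcnj16 8.53 Mb, while Kcnh4 and Kcnh6 lie at 1.67 and 3.57 Mb. Only Kcnj2 of the 8 members on that chromosome was called. Any part of nearness to Grn in these values was not tested.

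Promoters of 3 called members are shown, those with the largest statistic in each comparison whose window held no annotated exon. They are the 250 bases before a start listed for the gene in RefSeq on GRCm38.p6, with capitals on matches to the motifs searched. The Kcnh2 window lies inside the gene's span in GENCODE M21 (chr5:24319589-24351604), so it precedes an internal start. Windows of Kcnma1 and Kcnc4, counted below, also lie inside the spans of those genes.
Kcnh2 (chr5:24329592-24329841, minus strand): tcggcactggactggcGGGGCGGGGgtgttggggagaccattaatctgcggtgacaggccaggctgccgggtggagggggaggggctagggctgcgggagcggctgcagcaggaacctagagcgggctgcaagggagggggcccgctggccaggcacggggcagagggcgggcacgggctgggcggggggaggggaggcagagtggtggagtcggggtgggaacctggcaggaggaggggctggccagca
Kcnj10 (chr1:172340960-172341209, plus strand): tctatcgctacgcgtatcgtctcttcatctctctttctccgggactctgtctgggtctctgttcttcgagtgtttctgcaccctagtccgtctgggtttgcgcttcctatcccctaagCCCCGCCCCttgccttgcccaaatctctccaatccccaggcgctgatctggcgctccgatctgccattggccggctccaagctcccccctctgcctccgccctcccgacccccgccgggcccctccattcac
Kcnj2 (chr11:111065914-111066163, plus strand): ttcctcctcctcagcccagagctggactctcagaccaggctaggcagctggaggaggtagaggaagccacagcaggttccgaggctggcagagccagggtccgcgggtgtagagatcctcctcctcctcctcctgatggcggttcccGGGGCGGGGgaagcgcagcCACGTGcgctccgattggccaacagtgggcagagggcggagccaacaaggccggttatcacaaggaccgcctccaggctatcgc
The motifs were GGGGCGGGG (an SP1 GC box), CACGTG (an E-box), TGACG and TGACGTCA (cAMP response elements, the second holding the first), TGANTCA (an AP-1 site, with N for any base), GCGTGGGCG (EGR1) and TATAAA (a core promoter box), each on both strands. A promoter was given for 62 of the 85 members and 10 of the 12 called, and counts use the first listed start of each gene. GGGGCGGGG was in 4 of these 10 (Kcnh2, Kcnj10, Kcnj2 and Kcnma1), in 11 of the 62 members, or 17.7%, and in 18.0% of 13025 promoters. CACGTG was in 1 of the 10 (Kcnj2), in 4 of the 62 and in 7.93% of all promoters. TGACG was in 3 of the 10 (Kcnc4, Kcnj4 and Kcnn1), in 12 of the 62 and in 24.6% of all. TGACGTCA, TGANTCA, GCGTGGGCG and TATAAA were in 0 of the 10, beside 2.50%, 4.80%, 0.944% and 7.46% of all promoters. The median GC content was 66.8% for the called members, 60.2% for all members and 58.8% for all promoters.

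Other channels that shape firing were listed for comparison. Of 8 voltage-gated sodium channel genes and 4 HCN genes none passed in any comparison, with medians of -0.11 and 0.07 in Grn-/-;GRNtg and 0.01 and 0.02 in Grn+/- against wild type. Of 15 voltage-gated calcium channel genes only Cacna1e, the R-type pore subunit, passed, falling by 0.43 ± 0.105 (adjusted p = 0.0030) in Grn+/- against wild type in the authors' deposited table. Of 15 partners of potassium channels only Dlg2, a scaffold that anchors Shaker-type channels, passed, falling by 0.17 ± 0.053 (adjusted p = 0.033) in Grn+/- against wild type in the authors' deposited table. The shares called in these 2 lists, 1 of 15 each, lay near the 6.8% of all genes in that comparison. Dpp6 and Dpp10, membrane partners of A-type channels, had 0.26 ± 0.094 (adjusted p = 0.074) and 0.20 ± 0.071 (adjusted p = 0.076) in Grn-/-;GRNtg against wild type in the authors' deposited table.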

How the data were processed

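The files used are the authors' own comparison tables for 13 cortex libraries (4 Grn+/-, 4 Grn-/-;GRNtg and 5 wild type), with no values per mouse. Depth per mouse is therefore not known, and mean normalized counts of genes summed to 18113972. The library kit was directional and took total RNA, per the labels' protocols. The submitters' processing notes name DESeq2 1.34.0, R 4.1.2 and mm10, with no role for any. Not given in the sources used here are the aligner, counter, annotation and strand setting. Per the file headers, the columns are a mean normalized count (the authors' signal, a mean over libraries), the authors' log2 fold change with its SE, a Wald statistic (a score the authors computed as fold change over SE), and the authors' p-value and adjusted p-value. Recomputing the statistic and the Benjamini-Hochberg adjustment over each table from the deposited columns returned the deposited values. The 2 fold changes against wild type differ by exactly the third table's value, so all come from 1 fit. All SEs share a ceiling of 0.138, near which Kcnq3 and Kcna3 lie. The rarest members lay far below it. In Grn-/-;GRNtg against Grn+/-, Kcna7 (mean count 0.53) had 0.028 and Kcnj15 (mean count 1.00) had 0.046, while Kcnq3 (mean count 298) had 0.138. Whether the authors' fold changes had been pulled toward 0 was not tested, because no values per mouse are held. If they were, the percentages of wild type understate the measured differences. A further 2 rows that name no gene, 17.0% (no feature) and 0.606% (ambiguous) of mean normalized counts, were left out. No label gives a batch or litter.

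A member was called at an adjusted p under 0.05 over the whole table. Percentages of wild type and intervals of 95% (1.96 SE) were computed from the deposited values. Levels per kilobase use the merged exon length in GENCODE M21. The named members are those called, the 3 of each class with the highest level per kilobase, and the uncalled member of each class with the largest statistic in each comparison. Some values and 1 sequence are not reported here. Others were named as relatives of these, after their values were seen. Members and lists were chosen with earlier results of these data known. Alternatives were other thresholds, gene sets, scalings and a removed trend with gene span, all run on the deposited values. The scripts for these were checked beforehand on simulated data. Calculations used scipy 1.17.1, pandas 2.3.3, numpy 2.4.6 and Python 3.11.15. Choroid plexus markers and 7 annotated genes of the same symbol form were not analysed here.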

Additional observations from a re-analysis of the deposited data

Results flagged for a closer look

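The mutant groups differed from each other in 2 members by the authors' own test of Grn-/-;GRNtg against Grn+/- in the authors' deposited table. Neither gene passed against wild type in either group, although Kcnk10 in Grn+/- had -0.36 ± 0.130 (adjusted p = 0.067) and Kcnj2 in Grn+/- had -0.27 ± 0.123 (adjusted p = 0.18) in the authors' deposited table, with 95% intervals of -0.62 to -0.11 and -0.51 to -0.03. Kcnj2 had a log2 fold change of 0.48 ± 0.126 (adjusted p = 0.033) in the authors' deposited table, and its adjusted p ran from 0.028 to 0.13 over the alternatives. Kcnk10 had 0.49 ± 0.132 (adjusted p = 0.043) in the authors' deposited table, with a range of 0.043 to 0.16. With no values per mouse, how many of the 4 mice in each group show these directions is not known.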

How the results depend on the processing

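No paired analysis was possible because the deposited tables hold no values per mouse. Leaving out each mouse in turn was not run for the same reason. The main counts of called members were 5 in Grn+/- against wild type, 6 in Grn-/-;GRNtg against wild type and 2 in Grn-/-;GRNtg against Grn+/-. An adjusted p threshold of 0.01 left 1 (Kcnma1), 2 (Kcnj10 and Kcnq3) and 0 in that order, with 23 of 85 members at an unadjusted p under 0.05 by the authors' Wald test in the last comparison, and a threshold of 0.1 gave 8, 11 and 3. Dividing the statistics by their robust spread left 0 in all 3 comparisons, with 3, 5 and 29 of all genes still called. A log2 fold change of at least 0.3 left 3 in Grn-/-;GRNtg against wild type. Between the mutant groups 1 call (Kcnj2) was left with a mean normalized count of at least 50, among the genes of all 3 tables, and with the trend with gene span removed. Every other alternative kept each count within 1.5 times, and no called fold change changed sign after centring or removal of the span trend, the only alternatives that alter fold changes. The cause of these differences was not tested. Centring moved the median gene by under 0.01 on the log2 scale. At the median SE of the members, log2 differences under 0.33, 0.34 and 0.42 in the 3 comparisons could not pass.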

Other observations

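Of 6 other genes whose symbols begin with Kcn, only Kcnq1ot1, a long noncoding RNA antisense to Kcnq1, passed in a comparison. It fell by 0.42 ± 0.101 (adjusted p = 0.0023) in Grn+/- against wild type in the authors' deposited table, to 74.8% of wild type. It had -0.16 ± 0.101 (adjusted p = 0.35) in Grn-/-;GRNtg against wild type and 0.25 ± 0.105 (adjusted p = 0.39) in Grn-/-;GRNtg against Grn+/- in the authors' deposited tables. Kcnd3os, Kcne1l, Kcnmb4os1, Kcnmb4os2 and Kcnrg passed in none of the comparisons that list them, at mean normalized counts of 5.01 to 65.2 in the authors' deposited tables.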
